A study of Mus musculus with 6 samples.

Results

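The genes described here are the neighbours on mouse chromosome 4 of Cnr2, the gene of cannabinoid receptor 2 (CB2), whose knockout the study examined. They were chosen by position and by count: every gene of the deposited table that reaches into the 10 Mb on either side of Cnr2 and whose mean over the 6 libraries was at least 50 estimated counts, with Cnr2 itself, Hmgn2, Hdac1 and Rbbp4 left out. Of 18478 genes in the table, 283 lie in that window, 93 of them fell under the mean count and 4 were left out by name. The remaining 186 were 167 protein-coding genes and 19 pseudogenes or non-coding genes. All 186 also passed the filter on low counts that left 14084 genes for the test. Of the 186, 118 lie toward lower coordinates of Cnr2, called below it here, and 68 toward higher coordinates, called above it. The rule used the mean count and the position, and never the difference between groups. But 2 of the genes it leaves out by name, Hdac1 and Hmgn2, passed the test of that difference and Rbbp4 did not. Both were called lower in CB2 KO, Hmgn2 at 1.93 Mb below Cnr2 (log2 difference -0.70) and Hdac1 at 6.35 Mb below (-1.03). In 8 of the 186, 1 group alone was under a mean of 50 counts (Zbtb8a, Gmeb1, Sfn, Man1c1, Camk2n1 and Crocc in CB2 KO, Snhg12 and Slc30a2 in WT). These genes met the rule through the higher group and are still counted below; the groups lay apart for 4 of them. Just inside the minimum lay Camk2n1, at a mean of 50.2 counts, and just outside it A930004J17Rik, at 49.0. The outermost genes were Mrps15, 9.84 Mb below, and Znf41-ps, 9.91 Mb above. The next genes of sufficient count outside the window were Ftl2-ps, 10.4 Mb below, and Gm13034, 10.1 Mb above.

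The study measured total RNA of sorted lung group 2 innate lymphoid cells (ILC2s) by RNA-seq in 3 WT and 3 CB2 KO libraries. ILC2s lack antigen receptors, reside in tissues and produce the type 2 cytokines IL-5 and IL-13. Both groups were BALB/c mice of 6 weeks, WT or CB2 KO, and both received 3 intranasal doses of 1 µg recombinant mouse IL-33. In both, sorted cells were then cultured for 24 h in IL-7 and IL-2 (each 10 ng/mL), and 10 ng of RNA went into each library. The labels give neither the construct of the knockout, the strain of the cells in which it was made, the number of backcrosses, nor whether the 3 libraries of a group came from separate mice. P-values therefore measure the spread between these libraries, which may be technical. In bulk RNA, fewer cells of a type and less RNA per cell cannot be told apart.

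Genes that lie close together on a chromosome are inherited together. A targeted allele that is made in cells of one mouse strain and crossed into another carries along a stretch of the first strain's chromosome, which backcrossing shortens slowly. Genes in that stretch can differ in sequence and in regulation between a knockout and its control, whether or not the targeted gene acts on them. In the present design the libraries labelled CB2 KO differ from WT, by their labels, in Cnr2, and any DNA inherited with it would differ in the same libraries, so loss of CB2 and a difference in linked DNA cannot be told apart from these counts. The window holds a varied group of genes, among them regulators of lymphocytes (Lck, Runx3, Id3, Laptm5, Cd52), of the cytoskeleton (Stmn1, Cdc42) and of RNA processing (Srrm1, Srsf10, Hnrnpr).

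Each library held between 17141698 and 21621008 estimated counts, so a count of 0 allows up to 3 counts, or 0.140 to 0.174 CPM (counts scaled to a common library size). Such limits cover counting error only. Cnr2 (chromosome 4, 135895394 to 135920207, mm10) was at 9.32, 17.4 and 15.8 CPM in WT, and at 9.24, 1.604 and 3.84 CPM in the libraries labelled CB2 KO replicates 1, 2 and 3. The library labelled CB2 KO replicate 1 was thus level with the lowest WT library at the targeted gene, and the difference was not called (edgeR, quasi-likelihood F-test adjusted by Benjamini-Hochberg over all genes, adjusted p = 0.514). Counts over the whole gene do not show which part of a transcript is missing. That library also differed most from the rest, with a chi-square per degree of freedom of 55.8 to 83.4 against each of the other 5, compared with 32.9 to 60.1 among those. The 12 genes listed as ILC2 markers were all measured, with a summed level of 12920 to 14320 CPM in WT and 13390 to 15770 CPM in CB2 KO. Most of that sum was Il5, at 6972 to 7871 CPM in WT and 7888 to 10010 CPM in CB2 KO. Gata3, Il7r, Thy1, Klrg1, Icos and Il2ra were each lower in every CB2 KO library than in any WT library, as were 7.2% of all tested genes. Il2ra, for example, was at 2056 to 2416 and 1811 to 1978 CPM. The groups overlapped for Il1rl1, Rora, Ptprc, Il13 and Areg. Macrophage and monocyte markers (7 of 10 in the table) summed to 12.1 to 59.2 CPM in WT and 146.0 to 171.3 CPM in CB2 KO, of which Chil3 made up 0.559, 8.68 and 47.5 CPM in WT and 142.8, 107.6 and 134.5 CPM in CB2 KO. Lyz2 was at 1.12, 1.27 and 2.55 CPM in WT and at 10.4, 20.2 and 21.2 CPM in CB2 KO, and Csf1r at 0, 1.46 and 0 and at 0, 5.47 and 6.45 CPM. C1qc was at 0 in WT and at 1.89, 0 and 0.465 CPM in CB2 KO, and Cd68 at 6.58 to 10.4 and 6.57 to 12.7 CPM, while Siglecf and C1qb were at 0 in 5 of the 6 libraries and at 1.05 CPM in CB2 KO replicate 3. Mast cell and basophil markers (8 of 8) summed to 25.9 to 49.4 and 54.1 to 117.2 CPM, T cell markers (7 of 9) to 188.6 to 199.9 and 198.6 to 221.4 CPM, and B and plasma cell markers (3 of 6) to 10.9 to 17.3 and 13.7 to 14.9 CPM. Lung structural markers (4 of 7) summed to 50.7 to 144.6 and 47.5 to 58.5 CPM, and the neutrophil and eosinophil list (1 of 6) to at most 0.906 CPM in WT and 0 in CB2 KO. Of 31 tested markers, edgeR called 0, although 11 had an unadjusted p below 0.05, and DESeq2 called 4 (Lyz2, Tpsb2 and Il5 higher, Icos lower). The part of these other cells in the values below was not tested.

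Among the 186 flanking genes, 4 fell in CB2 KO and 0 rose (edgeR's quasi-likelihood test, adjusted p below 0.05 over all 14084 tested genes). Over all tested genes 0.0639% were called lower, 0.0426% higher and 0.107% in either direction, against 2.15% of the flanking genes. The genes that fell were Cep85, Sh3bgrl3, Cd52 and Stmn1, and all lie between 1.42 and 1.8 Mb below Cnr2. DESeq2 on the same counts called 15 flanking genes, 6 higher and 9 lower, with 1.19% and 1.4% of all genes called in those directions and 2.58% in either. At an unadjusted p below 0.05, edgeR counted 31 of the 186 (16.7%), against 8.6% of all tested genes. For 42 of the 186 (22.6%) the 3 CB2 KO libraries lay all above or all below the 3 WT libraries, 15 higher and 27 lower. Such a gap was found for 14.1% of all tested genes (6.91% higher and 7.2% lower), and for 14.9% of those with a mean of at least 50 counts. With 3 libraries against 3, an exact permutation test of a single gene cannot give a p below 0.1.

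**Figure D1:**
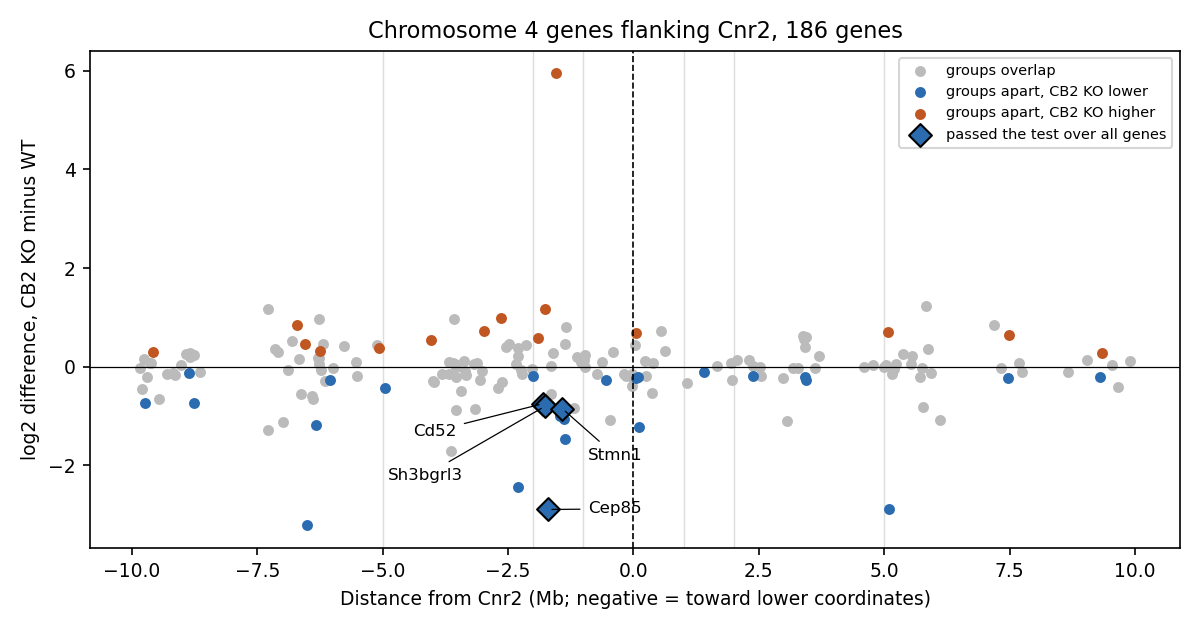
Log2 difference between CB2 KO and WT (vertical axis) of each of the 186 genes against its distance from Cnr2 in Mb (horizontal axis, negative toward lower coordinates), with genes whose groups do not overlap in colour and the 4 called genes as labelled diamonds. The diamonds sit close together between 1.42 and 1.8 Mb below Cnr2, and the grey points spread around 0 over the whole window.

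Cep85 encodes a centrosomal protein that takes part in centrosome separation. It lies 1.71 Mb below Cnr2 (chromosome 4, 134129858 to 134187112, minus strand, mm10). Its level was 617, 624 and 557 CPM in WT replicates 1 to 3. In CB2 KO it was 80.3, 78.4 and 82.7 CPM, so every CB2 KO library was far below every WT library and the library labelled CB2 KO replicate 1 was like the other 2. The means were 599 ± 37.0 and 80.5 ± 2.13 CPM (SD, n = 3 each), a 7.46-fold fall (log2 difference -2.90, SE 0.09). The adjusted p was 1.6e-05 (edgeR with Benjamini-Hochberg adjustment), and the call held when any 1 library was left out (adjusted p 0.000427 to 0.00108 by the same test).

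Sh3bgrl3, a small protein with a thioredoxin-like fold, is the next gene of the set toward lower coordinates (134127406 to 134128789, minus strand, 1.77 Mb below Cnr2). Its level was 1463, 1354 and 1342 CPM in WT. In CB2 KO it was 761, 814 and 802 CPM, and the groups did not overlap. The means were 1387 ± 66.7 and 793 ± 27.8 CPM (SD, n = 3 each), a 1.75-fold fall (log2 difference -0.81, SE 0.05; edgeR's test with Benjamini-Hochberg adjustment, adjusted p = 0.00396). Its last bases overlap those of Ubxn11, a UBX-domain gene on the opposite strand. The strand setting used in counting is not given in the sources, so reads of the overlap could have gone to either gene. Ubxn11 was at 3.35, 7.12 and 9.96 CPM in WT and at 20.1, 11.04 and 13.8 CPM in CB2 KO, the opposite direction, and did not pass (edgeR with Benjamini-Hochberg adjustment, adjusted p = 0.549).

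Cd52 encodes a short glycoprotein anchored in the membrane of lymphocytes, in humans the target of the antibody alemtuzumab. It lies 1.8 Mb below Cnr2 (134082448 to 134095082, minus strand) and overlaps Crybg2. Its level was 658, 575 and 609 CPM in WT. In CB2 KO it was 372, 353 and 369 CPM, and no CB2 KO library reached a WT library. The means were 614 ± 41.4 and 365 ± 10.2 CPM (SD, n = 3 each), a 1.69-fold fall (log2 difference -0.75, SE 0.07; edgeR's test with Benjamini-Hochberg adjustment, adjusted p = 0.016).

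Stmn1 encodes stathmin, which binds tubulin and destabilises microtubules and is abundant in dividing cells. It lies 1.42 Mb below Cnr2 (134468320 to 134473843, plus strand) and overlaps Gm23634. Its level was 645, 582 and 581 CPM in WT. In CB2 KO it was 300.4, 369 and 333 CPM, again with no overlap, and the library labelled CB2 KO replicate 1 was the lowest. The means were 603 ± 37.0 and 334 ± 34.4 CPM (SD, n = 3 each), a 1.804-fold fall (log2 difference -0.85, SE 0.09; edgeR's test with Benjamini-Hochberg adjustment, adjusted p = 0.0298).

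The calls of Cd52 and Stmn1 needed all 6 libraries. Without WT replicates 1, 2 and 3 and the libraries labelled CB2 KO replicates 1, 2 and 3 in turn, edgeR's test with Benjamini-Hochberg adjustment gave Cd52 an adjusted p of 0.0781, 0.069, 0.169, 0.0672, 0.118 and 0.173. In the same order, and by the same test, Stmn1 had adjusted p-values of 0.264, 0.223, 0.207, 0.0743, 0.0675 and 0.253. Sh3bgrl3 lost its call without WT replicate 2 (edgeR, adjusted p = 0.0552) and without CB2 KO replicate 3 (edgeR, adjusted p = 0.0746). Without the library labelled CB2 KO replicate 1, Cep85 and Sh3bgrl3 were the 2 flanking genes called, among 8 genes called in all. The log2 differences moved little in these fits, from -2.95 to -2.87 for Cep85, -0.83 to -0.77 for Sh3bgrl3, -0.80 to -0.70 for Cd52 and -0.93 to -0.78 for Stmn1.

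**Figure D2:**
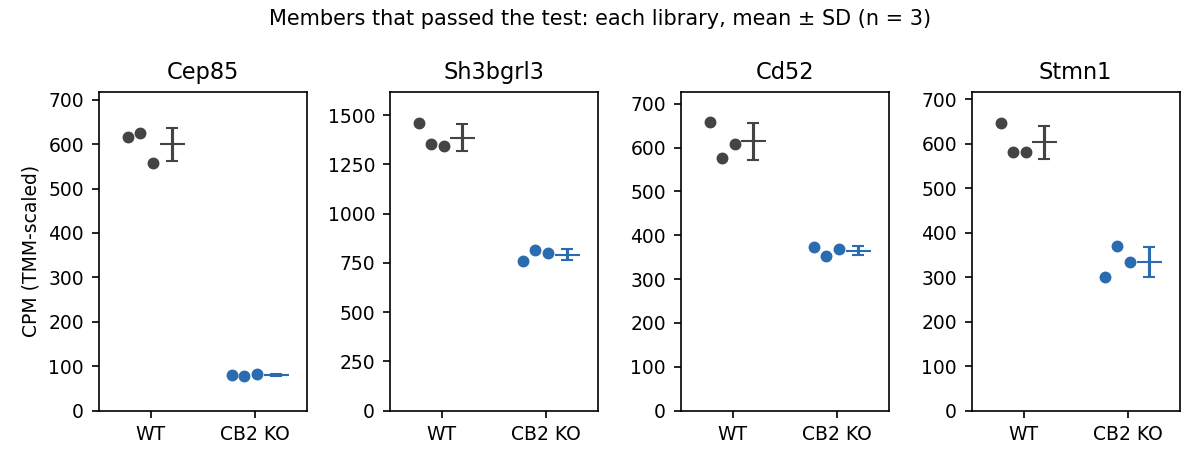
TMM-scaled CPM (vertical axis, from 0) of the 4 called genes in each WT and CB2 KO library (points), with mean ± SD (bars, n = 3) beside them. In every panel the 3 CB2 KO points lie below the 3 WT points, at 78.4 to 82.7 against 557 to 624 CPM for Cep85.

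The promoter sequences of Cep85 and Sh3bgrl3 are shown because these are neighbours on the same strand that fell together and kept their calls in most fits. Sequences are from RefSeq (GRCm38.p6), 5′ to 3′ on the gene's strand, limited to bases before the start in both RefSeq and GENCODE. Capitals mark each CCAAT box (CCAAT or ATTGG) and each GC box (GGGCGG or CCGCCC).
Cep85, chr4:134187113-134187335, minus strand: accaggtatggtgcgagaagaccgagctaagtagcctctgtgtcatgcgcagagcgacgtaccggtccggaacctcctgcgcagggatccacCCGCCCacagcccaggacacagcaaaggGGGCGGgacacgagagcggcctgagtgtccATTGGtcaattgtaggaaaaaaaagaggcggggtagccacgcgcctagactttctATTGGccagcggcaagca
Sh3bgrl3, chr4:134128790-134128983, minus strand: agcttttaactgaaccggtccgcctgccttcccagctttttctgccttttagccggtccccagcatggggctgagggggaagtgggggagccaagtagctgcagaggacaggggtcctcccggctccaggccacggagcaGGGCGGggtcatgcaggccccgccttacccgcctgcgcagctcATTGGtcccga
Cep85 holds 2 CCAAT boxes and 2 GC boxes in this stretch, and Sh3bgrl3 holds 1 of each. Neither stretch holds the TATA box letters TATAAA on either strand. The RUNX site letters TGTGGT and the letters AGATAA, a binding site of GATA factors, were likewise not found in these stretches. Of the 186 genes, 145 had a promoter entry, and the 250 bases before their starts were searched on both strands. GGGCGG was found in 85 of the 145 (58.6%), against 32.7% of all 32851 promoter entries, and CCAAT in 58 (40.0%, against 33.8%). TATAAA was found in 9 (6.21%, against 12.4%), AGATAA in 2 (1.38%, against 9.99%) and TGTGGT in 15 (10.3%, against 14.0%). The 145 were 1 entry per gene, from genes with a mean of at least 50 counts. The 32851 were all entries, chosen neither by gene nor by expression. The shares are thus not like for like, and whether they differ from those of other expressed genes was not tested. These are matches of letters, not known sites of binding. Cd52 and Stmn1 had no entry.

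The called genes belong to a stretch of 884 kb, between 1 and 2 Mb below Cnr2, that holds 18 of the flanking genes (chromosome 4, 133969028 to 134853345). There 4 of 18 (22.2%) were called, against 0.107% of all tested genes. By edgeR 10 of 18 had an unadjusted p below 0.05 (55.6%, against 8.6%). The groups lay apart for 10 of 18 (55.6%, 3 higher and 7 lower, against 14.1%). Differences in both directions were common: 9 genes had a positive and 9 a negative log2 difference. The median size of the log2 difference, regardless of sign, was 0.80, against 0.25 over all tested genes. These values include Slc30a2, which met the minimum count only through CB2 KO, and Man1c1, which met it only through WT. The size of the log2 difference was 0.5 or more for 13 of the 18 (72.2%), and for 27.0% of all tested genes. Among the 5 libraries other than the one labelled CB2 KO replicate 1, the median size was 0.77, and the groups lay apart for 12 of 18 (66.7%), against 24.1% of all tested genes. Outside this stretch the remaining 168 flanking genes had 0 calls by edgeR and a median size of 0.22. DESeq2 called 9 (5.4%, against 2.58% of all tested genes), and 21 had an unadjusted p below 0.05 by edgeR (12.5%, against 8.6%). The groups lay apart for 32 (19.0%, against 14.1%). Distances were binned, and the bins described, with earlier results of these data known, so no test was made of the stretch against the rest.

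Of the other 14 genes of the stretch, 3 were lower in every CB2 KO library and lie close to Stmn1. Aunip, whose product binds the mitotic kinase Aurora A and acts in DNA repair, was at 22.2, 28.2 and 31.0 CPM in WT and at 14.6, 5.85 and 8.66 CPM in CB2 KO (log2 difference -1.48, SE 0.36; edgeR with Benjamini-Hochberg adjustment, adjusted p = 0.339). Paqr7, a membrane progestin receptor gene, was at 28.0, 16.6 and 25.02 CPM in WT and at 4.37, 16.5 and 12.5 CPM in CB2 KO. Pafah2, which encodes an enzyme that inactivates platelet-activating factor, was at 29.02, 20.2 and 21.5 CPM in WT and at 16.6, 4.48 and 15.5 CPM in CB2 KO. For Paqr7 the lowest WT and the highest CB2 KO library nearly met, and for none of the 3 did the difference pass over all genes by edgeR, while DESeq2 called Aunip.

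Among these 14 genes, 3 were higher in every CB2 KO library. Dhdds, an enzyme of dolichol synthesis needed for protein glycosylation, was at 37.2, 55.4 and 45.9 CPM in WT and at 68.1, 71.5 and 66.7 CPM in CB2 KO (log2 difference 0.58, SE 0.18). Slc30a2, a zinc transporter gene, was at 0, 0.293 and 0 CPM in WT and at 2.29, 2.93 and 16.2 CPM in CB2 KO, which is 0, 6 and 0 counts against 46, 62 and 278. Its 3 CB2 KO libraries thus spread over several fold, and it reached the mean of 50 counts only through CB2 KO (mean of 2.0 counts in WT and 129 in CB2 KO), so its difference is given as a description. Ubxn11, the overlapping neighbour of Sh3bgrl3, was the third. edgeR called none of the 3 (unadjusted p 0.0145 for Dhdds, 0.0296 for Slc30a2 and 0.0355 for Ubxn11), and DESeq2 called Slc30a2.

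The groups overlapped for the remaining 8 genes. Mtfr1l, a mitochondrial fission regulator gene, was at 69.7, 63.2 and 51.7 CPM in WT and at 67.6, 93.8 and 95.4 CPM in CB2 KO, where the library labelled CB2 KO replicate 1 fell within the WT range. Selenon, which encodes selenoprotein N, was at 0, 24.9 and 15.7 CPM in WT and at 28.5, 21.4 and 19.0 CPM in CB2 KO (log2 difference 0.80, SE 0.71), so that WT replicate 1 had no count and the other 2 WT libraries overlapped CB2 KO. Man1c1, a Golgi mannosidase gene, had 0 counts in WT replicate 2 and 2 counts in CB2 KO replicate 3. E130218I03Rik, which overlaps Zfp593, had a log2 difference of -0.56 (SE 0.59). Differences were small for Zfp593 (log2 difference 0.00), Maco1 (0.09) and the kinase gene Pdik1l (0.27).

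**Figure D3:**
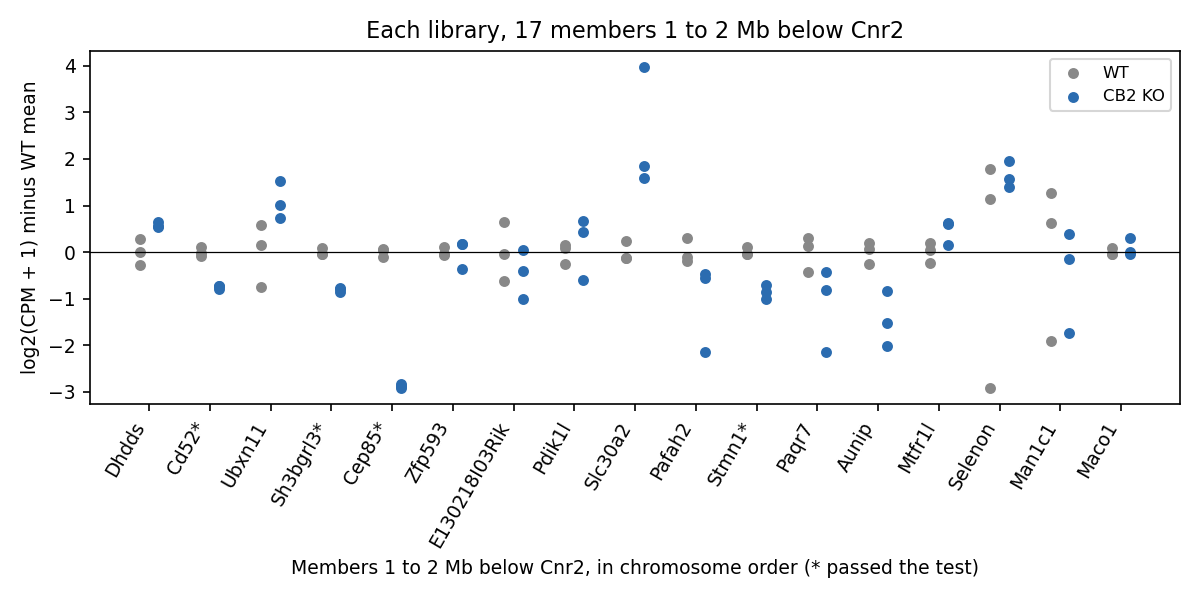
Log2(CPM + 1) of each library minus the WT mean (vertical axis) for 17 of the 18 genes 1 to 2 Mb below Cnr2 in chromosome order (horizontal axis), WT in grey and CB2 KO in blue, with called genes starred. Tight groups far apart stand out for Cep85, Sh3bgrl3, Cd52 and Stmn1, whereas Slc30a2, Selenon and Man1c1 scatter widely between libraries.

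Nearer to Cnr2 the median size of the difference was smaller than in the stretch described above. Below Cnr2 within 1 Mb lie 12 of the genes, of which edgeR and DESeq2 called 0. By edgeR 2 of them (16.7%) had an unadjusted p below 0.05, against 8.6% of all tested genes. The groups lay apart for 1 (8.33%, against 14.1%), and the median size of the log2 difference was 0.17. The nearest, Pnrc2, which couples mRNA decay factors to decapping, was at 85.2, 94.8 and 94.6 CPM in WT and at 86.5, 56.0 and 67.3 CPM in CB2 KO (log2 difference -0.39, SE 0.18). The splicing factor gene Srsf10, which has a near-identical copy elsewhere in the table, was at 117, 177 and 140.0 CPM in WT and at 113, 157 and 121 CPM in CB2 KO. The groups overlapped for both, and for the next genes, Gm12988 (log2 difference -0.19) and Gm12989 (-0.14). Gm12988 matches Skp1a on chromosome 11 (92.9% identity over 493 nt), and Gm12989 matches Psma5 on chromosome 3 (97.55% over 734 nt). Reads may have been divided between each and its match, which was not tested. Srrm1, a splicing coactivator gene 0.542 Mb below Cnr2, was the gene with groups apart, at 162, 146 and 170 CPM in WT and at 140, 129 and 127 CPM in CB2 KO (log2 difference -0.27, SE 0.11). Runx3, a transcription factor gene of innate lymphocytes and cytotoxic T cells, was at 65.5, 54.6 and 68.7 CPM in WT and at 68.9, 59.2 and 38.8 CPM in CB2 KO, with overlapping groups. Rcan3, a calcineurin regulator gene, was at 88.7, 39.0 and 56.8 CPM in WT and at 16.0, 29.2 and 45.1 CPM in CB2 KO, so that CB2 KO replicate 3 lay above WT replicate 2.

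Above Cnr2 within 1 Mb lie 13 genes, of which edgeR called 0. DESeq2 called 2 (15.4%, against 2.58% of all tested genes), and 3 had an unadjusted p below 0.05 by edgeR (23.1%, against 8.6%). The groups lay apart for 4 of the 13 (30.8%, against 14.1%), 1 higher and 3 lower. The median size of the log2 difference was 0.23, against 0.25 over all tested genes. Fuca1, the gene of a lysosomal fucosidase, begins 0.53 kb from Cnr2 and was at 191, 180 and 170 CPM in WT and at 123, 180 and 160 CPM in CB2 KO (log2 difference -0.23, SE 0.15). Only the libraries labelled CB2 KO replicates 1 and 3 were below all WT libraries.

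The genes with groups apart above Cnr2 within 1 Mb were Lypla2, Pithd1, Eloa and Rpl11. Lypla2, which encodes a thioesterase that removes palmitate from proteins, was at 115, 122 and 127 CPM in WT and at 103, 98.3 and 109.7 CPM in CB2 KO (log2 difference -0.23, SE 0.11). Pithd1 was at 62.1, 44.0 and 57.5 CPM in WT and at 97.3, 90.8 and 74.2 CPM in CB2 KO (log2 difference 0.69, SE 0.18; edgeR with Benjamini-Hochberg adjustment, adjusted p = 0.383). Eloa, the gene of the transcription elongation factor elongin A, was at 269, 283 and 296 CPM in WT and at 234, 245 and 249 CPM in CB2 KO (log2 difference -0.22, SE 0.08). Id3, an inhibitor of E proteins in lymphocyte development, had widely spread and overlapping groups, 17.2, 7.61 and 4.76 CPM in WT and 14.7, 10.5 and 7.50 CPM in CB2 KO.

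Farther out, and in the thin bin of 1 to 2 Mb above Cnr2, none of the 186 genes was called by edgeR. Hdac1, called lower at 6.35 Mb below Cnr2, is not among them because the rule leaves it out by name. The groups lay apart for 6 of 38 (15.8%) at 2 to 5 Mb below, 11 of 50 (22%) at 5 to 10 Mb below, 1 of 5 at 1 to 2 Mb above, 3 of 21 (14.3%) at 2 to 5 Mb above and 6 of 29 (20.7%) at 5 to 10 Mb above. Over all tested genes the share was 14.1%. The medians of the size of the log2 difference in these bins were 0.25, 0.28, 0.12, 0.19 and 0.21, in the same order. Beside the 0 calls by edgeR, these bins held 5, 5, 0, 2 and 4 genes at an unadjusted p below 0.05 by edgeR. These were 13.2%, 10.0%, 0%, 9.5% and 13.8%, against 8.6% of all tested genes. DESeq2 called 4, 0, 0, 1 and 2, or 10.5%, 0%, 0%, 4.8% and 6.9%, against 2.58%. Over the whole window the size of the difference showed little relation to distance, with a Spearman rho of -0.07 over 186 genes, -0.08 over the 118 below and -0.07 over the 68 above; these are descriptions across genes that share the same libraries. The median log2 difference of all 186 genes was -0.025, with 87 positive and 99 negative. It was -0.04 below and -0.01 above Cnr2, against 0.00 over all tested genes.

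**Figure D4:**
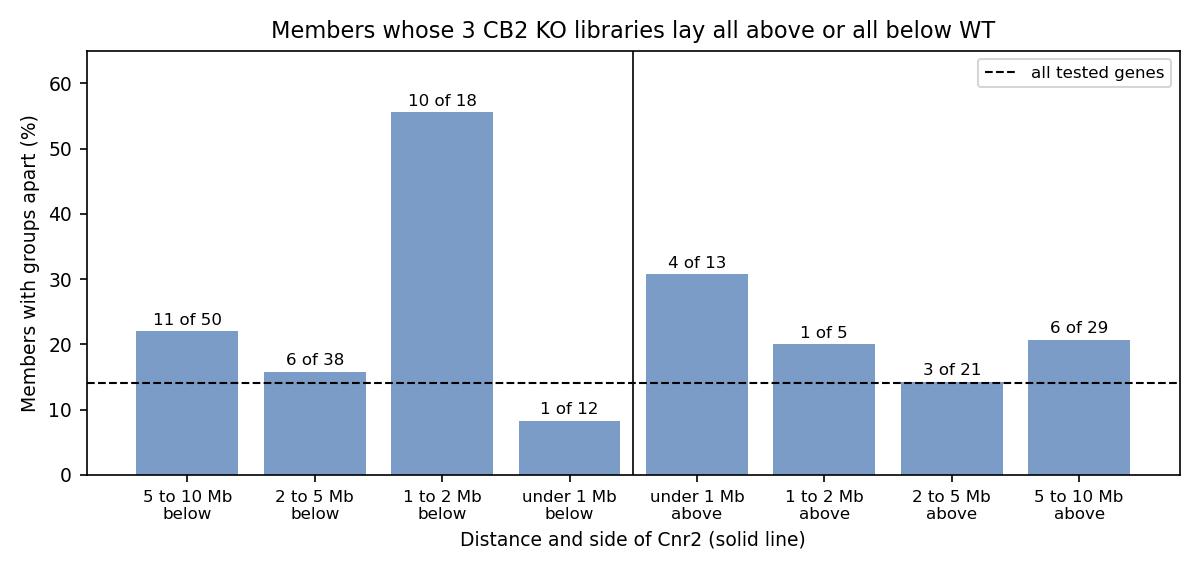
Percentage of genes whose 3 CB2 KO libraries lay all above or all below the 3 WT libraries (bars, vertical axis) by distance and side of Cnr2 (horizontal axis), with the share over all tested genes as a dashed line at 14.1%. The bar for 1 to 2 Mb below Cnr2 reaches 10 of 18, and the bars of the other bins lie between 1 of 12 and 4 of 13.

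Several genes outside the stretch had tight groups that did not overlap and missed the threshold over all genes. Laptm5, a lysosomal membrane protein gene of blood cells that lowers antigen receptor levels, lies 4.96 Mb below Cnr2. It was at 1377, 1307 and 1239 CPM in WT and at 904, 989 and 999 CPM in CB2 KO (log2 difference -0.44, SE 0.06; edgeR with Benjamini-Hochberg adjustment, adjusted p = 0.0751). Sfn, the gene of 14-3-3 sigma, lies 2.29 Mb below Cnr2 and was at 9.32, 10.9 and 9.85 CPM in WT and at 2.34, 1.23 and 1.98 CPM in CB2 KO (log2 difference -2.45, SE 0.42; adjusted p = 0.0988 by edgeR). In both genes the groups were far apart compared with the spread within each. But Sfn met the minimum count only through WT (mean of 199 counts in WT and 35.6 in CB2 KO), so its difference is given as a description.

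Differences of the opposite direction were seen for Sytl1, Fam76a, Atp13a2 and Pramef8. Sytl1, an effector of Rab27 in vesicle secretion, lies 2.63 Mb below Cnr2 and was at 35.3, 33.1 and 26.5 CPM in WT and at 62.1, 66.0 and 60.7 CPM in CB2 KO (log2 difference 0.98, SE 0.18; edgeR adjusted p = 0.156). Atp13a2, a lysosomal polyamine transporter gene 5.07 Mb above Cnr2, was at 92.3, 117 and 101 CPM in WT and at 176, 167 and 164 CPM in CB2 KO (log2 difference 0.71, SE 0.12; edgeR adjusted p = 0.126). Fam76a was at 44.4, 47.2 and 37.6 CPM in WT and at 66.9, 82.4 and 63.1 CPM in CB2 KO, a log2 difference of 0.72 (SE 0.18). The groups did not overlap in any of them. Pramef8, a member of a tandem gene family, was at 28.8, 35.6 and 31.1 CPM in WT and at 44.2, 51.9 and 53.6 CPM in CB2 KO, and reads shared with its relatives may be split between them. Zbtb8a, a zinc finger gene that overlaps Zbtb8os, had 462, 320 and 343 counts in WT and 0, 0 and 118 in CB2 KO. It met the minimum count only through WT. DESeq2 called Laptm5, Sfn, Sytl1, Atp13a2, Fam76a, Pithd1, Pramef8 and Rpl11, but not Zbtb8a.

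Of the 186 genes, 118 stand in 6 lists by function, which were written with earlier results of these data known. Of 17 genes listed under cytoskeleton and cell division, 3 fell (Cep85, Sh3bgrl3 and Stmn1; 0.0639% of all tested genes were called lower) and 0 rose. All 3 lie in the stretch described above, so the count adds nothing independent of it. The list had 5 positive and 12 negative log2 differences and a median of -0.12. Cdc42, a small GTPase that organises actin, was at 1076, 1051 and 1141 CPM in WT and at 968, 998 and 1046 CPM in CB2 KO (log2 difference -0.12, SE 0.05), so the groups were apart by a few CPM, and it did not pass. Of 14 immune signalling and lymphocyte genes, 1 fell (Cd52) and 0 rose, with 4 positive and 10 negative and a median of -0.19. The groups were apart for 7 of these 14, 6 of them lower, against 14.1% of all tested genes in either direction and 7.2% lower; the list was written with results known.

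Among those immune genes, Lck, the kinase of antigen receptor signalling in T cells, was at 8.80, 8.48 and 10.8 CPM in WT and at 0, 6.89 and 5.46 CPM in CB2 KO. Over the same libraries the summed T cell markers were at 188.6 to 199.9 CPM in WT and 198.6 to 221.4 CPM in CB2 KO. Most of that sum was Trbc2, at 128.2 to 138.5 CPM in WT and 113.1 to 129.5 CPM in CB2 KO, and Trbc1. Trbc1 was at 43.9 to 45.1 CPM in WT and 50.8 to 76.6 CPM in CB2 KO. Cd3g was at 9.60, 17.2 and 15.1 CPM in WT and at 25.6, 28.9 and 23.9 CPM in CB2 KO, higher in every CB2 KO library. The remaining measured T cell markers, Cd3e, Cd3d, Cd8b1 and Trac, had overlapping groups and reached at most 3.18 CPM. Whether the share of T cells differed was not tested. Ptp4a2, a phosphatase gene, was at 478, 406 and 420 CPM in WT and at 331, 373 and 379 CPM in CB2 KO. The ribosomal S6 kinase gene Rps6ka1 was at 376, 364 and 323 CPM in WT and at 315, 320 and 302 CPM in CB2 KO, a gap of a few CPM between the groups. Tnfrsf1b, the TNF receptor 2 gene, was at 208, 227 and 214 CPM in WT and at 195, 199.7 and 161 CPM in CB2 KO. Its neighbour Tnfrsf8, the CD30 gene, had the opposite order, 174, 173 and 179 CPM in WT and 193, 206 and 240.2 CPM in CB2 KO. None of these 5 flanking genes passed the test by edgeR or DESeq2.

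The other lists held 0 called genes by edgeR. Over all tested genes, 8.6% had an unadjusted p below 0.05 by edgeR, and DESeq2 called 2.58%. Of 28 RNA processing and translation genes, 12 were positive and 16 negative with a median of -0.09. In that list 2 (7.1%) had an unadjusted p below 0.05 by edgeR, and DESeq2 called 1 (3.6%), Rpl11. The arginine- and serine-rich protein gene Rsrp1 and the tyrosyl-tRNA synthetase gene Yars, the most abundant by CPM in that list, had log2 differences of -0.02 and 0.15. Of 22 chromatin, transcription and replication genes, 14 were positive and 8 negative with a median of 0.06. Among them 2 (9.1%) had an unadjusted p below 0.05 by edgeR, and DESeq2 called 1 (4.5%), Aunip. Rcc2, a regulator of chromosome segregation, differed by 0.04. Of 23 metabolic and organelle genes, 11 were positive and 12 negative with a median of -0.01. Among these, 5 (21.7%) had an unadjusted p below 0.05 by edgeR, and DESeq2 called 2 (8.7%), Atp13a2 and Ddost. Ddost, a subunit of the enzyme that transfers glycans to proteins, was at 604, 624 and 631 CPM in WT and at 523, 526 and 570 CPM in CB2 KO, and the respiratory complex II gene Sdhb differed by 0.03 on the log2 scale. Of 14 protein turnover and stress genes, 11 were positive and 3 negative with a median of 0.15. By edgeR 1 (7.1%) had an unadjusted p below 0.05, and DESeq2 called 0. In that list Rnf19b, a ubiquitin ligase gene of cytotoxic lymphocytes, differed by 0.53, the proteasome subunit gene Psmb2 by -0.14 and the kinase gene Stk40 by 0.16. A further 68 genes stood in no list, with 0 calls by edgeR, 11 (16.2%) at an unadjusted p below 0.05 by edgeR and 6 (8.8%) called by DESeq2. The 19 pseudogenes and non-coding genes had 0 calls by edgeR or DESeq2 and 0 at an unadjusted p below 0.05 by edgeR. The groups lay apart for 2 of them (10.5%, against 14.1% of all tested genes), Ccnd3-ps and Anp32b-ps1, both lower.

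The deposited counts are estimates that divide a read between all genes it can align to, so sequence shared with other genes bears on several of these values. Transcripts of the flanking genes (GENCODE M21, 184 matched by symbol) were aligned to those of all genes of the table. Of the 186, 39 had a stretch of at least 200 nt with at least 90% identity in another gene, and 25 one with at least 95%. Rpl11, a protein of the large ribosomal subunit, and Stmn1 show how close such copies can be. The pairs below are 60 coding bases of each gene, numbered from the start codon, and the same bases of its closest measured copy; the capital marks the base that differs.
Rpl11, coding bases 57 to 116: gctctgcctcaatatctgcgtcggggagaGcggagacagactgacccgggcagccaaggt
Gm10288, same bases: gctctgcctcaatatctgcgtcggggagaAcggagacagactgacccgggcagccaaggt
Stmn1, coding bases 245 to 304: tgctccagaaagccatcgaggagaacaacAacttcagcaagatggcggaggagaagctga
Gm11223, same bases: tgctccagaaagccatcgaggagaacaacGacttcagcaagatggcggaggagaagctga
Gm10288 (chromosome 3, 146838811 to 146839347) differs from Rpl11 at 1 of 537 aligned bases. Gm11223 (chromosome 4, 69925630 to 69926079, outside the window) differs from Stmn1 at 1 of 450.

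Rpl11 by itself was lower in every CB2 KO library, at 30.9, 26.5 and 22.1 CPM in WT and at 12.1, 11.6 and 10.3 CPM in CB2 KO (log2 difference -1.24, SE 0.27; edgeR with Benjamini-Hochberg adjustment, adjusted p = 0.278). Its copy Gm10036, with 4 mismatches in 534 bases, was higher in every CB2 KO library, at 14.9, 6.14 and 19.9 CPM in WT and at 45.5, 37.0 and 52.6 CPM in CB2 KO. Gm10288 carried most of the counts, at 177, 148 and 164 CPM in WT and at 146, 139 and 140.5 CPM in CB2 KO. Summed over Rpl11 and its 4 copies, the level was 204 ± 21.3 CPM in WT against 198.5 ± 9.34 CPM in CB2 KO (SD, n = 3 each), with overlapping groups. The log2 ratio of the means was -0.04 for the sum and -1.23 for Rpl11 alone. The sum was formed after the values of Rpl11 had been seen.

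For Stmn1 the sum kept the difference. Gm11223 was at 232, 223 and 215 CPM in WT and at 140.5, 177 and 162 CPM in CB2 KO, in the same direction as Stmn1 but not past the threshold (edgeR with Benjamini-Hochberg adjustment, adjusted p = 0.284). Together they were at 826 ± 44.6 CPM in WT against 494 ± 52.5 CPM in CB2 KO, with groups apart, and the log2 ratio of the means was -0.74 against -0.85 for Stmn1 alone. Sh3bgrl3 and Cd52 had no copy at 90% identity.

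Cep85 shares part of 1 transcript with genes on other chromosomes. The shared segment is 591 nt long (chromosome 4, 134164112 to 134164702, minus strand, mm10) and lies within exon 4 of 4 of a non-coding transcript of Cep85. Of the 8 other Cep85 transcripts, 1, of the nonsense-mediated decay class, overlaps the segment. Parts of it match 9 other genes of the table at 90% identity or more, and 3 of those passed the test themselves. Gm42031 (chromosome 8; 96.5% of 366 nt) fell, from 157, 156 and 148 CPM in WT to 4.42, 5.71 and 4.83 CPM in CB2 KO. Gm43305 (chromosome 14; 94.8% of 310 nt) fell, from 226, 250.2 and 219 to 81.4, 94.7 and 80.9 CPM. Cnbd2 (chromosome 2; 99.7% of 351 nt) rose, from 7.50, 8.10 and 5.38 to 36.3, 43.3 and 41.3 CPM. Of the 15 genes called over the whole table, Cep85 and these 3 thus have parts in common with 1 segment, and reads from it may have been divided between them. Cnbd2 matches the segment in the orientation of the Cep85 transcript, Gm42031 and Gm43305 in the reverse orientation, and the strand setting is not known.

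Summed over Cep85 and the 9 genes, the level was 1578 ± 65.05 CPM in WT against 790 ± 54.5 CPM in CB2 KO (SD, n = 3 each), with groups apart. The log2 ratio of the means was -0.999 for the sum, against -2.90 for Cep85 alone. With the 3 genes of at least 95% identity alone, the sum was 767.5 ± 42.4 CPM in WT against 132 ± 4.30 CPM in CB2 KO, a log2 ratio of -2.54. Those 3 are Cnbd2, Gm42031 and Gm4316, which was not called, and they do not include Gm43305. How many of the reads given to Cep85 came from the shared segment cannot be read from counts per gene, so whether its coding transcripts changed was not tested. For Zbtb8a, a segment shared with 2 genes left a log2 ratio of -0.20 for the sum against -3.04 alone, though those 2 genes hold most of that sum.

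**Figure D5:**
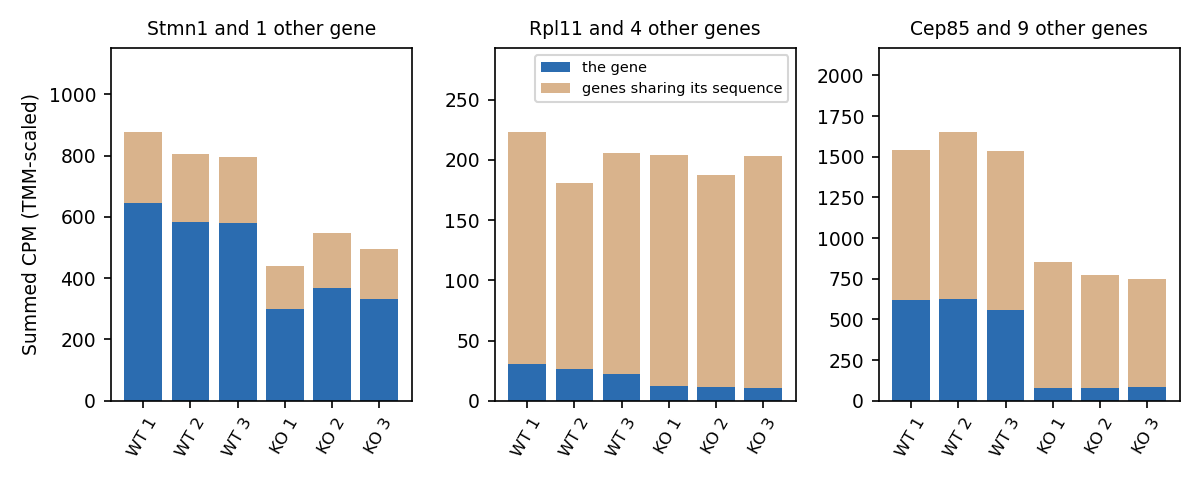
TMM-scaled CPM per library (stacked bars from 0, each panel with its own scale) of Stmn1, Rpl11 and Cep85 in blue and of the other genes that share at least 90% of a stretch of their sequence in tan. The summed bars stay level between groups for Rpl11 (204 against 198.5 CPM on average) and are lower in CB2 KO for Stmn1 (826 against 494) and Cep85 (1578 against 790).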

How the data were processed

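RNA of 3 WT and 3 CB2 KO libraries was compared; groups and replicate numbers come from the sample titles. The authors deposited an estimated count per gene and library (per the file headers, from expectation-maximization in Partek) and, for the same genes, a normalized signal, each value of which is count + 1 over a library factor. Named in the submitters' processing notes are mm10, STAR (given as version 3.5.3), Partek and CASAVA 1.8.2. Deposited stops lie 1 above the annotated end and were corrected. Rounded counts went through edgeR 4.0.16 in R 4.3.3: filterByExpr (4394 genes removed, 14084 kept), TMM, robust glmQLFit (legacy=FALSE), glmQLFTest and a Benjamini-Hochberg threshold of 0.05. The SE is the log2 difference divided by the root of F. DESeq2 1.42.0 and limma 3.58.1 were alternatives, with other scalings, no filter, a replicate block and each library left out. Shared sequence was searched with BLAST 2.17.0 (megablast). The workflow was tested on simulated data.

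The genes, function lists, distance bins and marker lists were chosen with earlier results of these data known. Genes named with values are those called, the 10 next by p, the 4 nearest on each side, and per list the 2 smallest p and the 2 highest levels; any other was chosen after its values were seen. A few genes picked by this rule are left unreported. No 2 libraries agreed within sampling noise (lowest chi-square over degrees of freedom 32.9), so none was merged.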

Additional observations from a re-analysis of the deposited data

How the results depend on the processing

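Numbers of calls depended on the tool and on single libraries. DESeq2 called 363 genes in all and 15 flanking genes, against 15 and 4 with edgeR. With RLE, upper-quartile or no scaling factors, no filter, limma-voom, or limma on the authors' normalized signal, the flanking calls were the same 4 genes; with legacy=TRUE they were 3, since Stmn1 had an adjusted p of 0.0557 (edgeR). Leaving out 1 library gave 3 to 8 genes in all, 1 to 2 flanking genes, 55 to 68 with groups apart (fewer libraries make gaps commoner) and a median log2 difference of -0.0469 to -0.0002, against -0.025; with library size alone the median was -0.0008. Flanking genes that overlap no other gene numbered 137, of which 1 (Cep85) was called. Those with no copy at 90% identity, an alternative chosen after seeing the data, numbered 147, of which 2 were called. Within 5 Mb of Cnr2, 25 of 107 had groups apart, against 14.1% of all tested genes, and all 4 calls remained.

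The titles number the replicates of both groups 1 to 3. Over tested genes, deviations of same-numbered libraries from their group means had correlations of 0.0442, 0.0173 and 0.0131. Those of the other pairs ran from -0.0358 to 0.0225. Values this small cannot show whether same-numbered libraries were handled together, because a shared step could touch only some genes. WT replicates 1 and 2 correlated best with the CB2 KO library of their own number, and WT replicate 3 with CB2 KO replicate 2. With a replicate block, edgeR called 3 genes in all and 1 flanking gene, Cep85; Cd52 and Sh3bgrl3 had an adjusted p of 0.14 and Stmn1 of 0.343 (edgeR).

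Direction changed under an alternative for named genes with differences near 0. With library size alone, Rsrp1 was at 0.007 instead of -0.017. With 1 library left out, the log2 differences ran from -0.125 to 0.0584 for Rsrp1 (positive without CB2 KO replicate 1 or 3) and from -0.3074 to 0.0335 for Srsf10 (positive without WT replicate 2). They ran from -0.0397 to 0.1684 for Rcc2 (negative without WT replicate 1 or CB2 KO replicate 2 or 3) and from -0.0119 to 0.119 for Sdhb (negative without WT replicate 2 or 3). The alternatives were fitted over the whole table, and directions were compared for 32 genes chosen by the naming rule. The others of these 32 kept their direction in all 15. For other genes named in the text the directions were not compared. The cause was not tested. Genes near the minimum of 50 counts, such as Slc30a2, Crocc and Man1c1, have libraries at or near 0, and their depth sets no useful limit on a difference.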

Other observations

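Outside the function lists, 2 further flanking genes with groups apart were listed at or near 0 in a CB2 KO library. Crocc, which encodes rootletin of the ciliary rootlet and lies 5.10 Mb above Cnr2, had 250, 199 and 58 counts in WT and 0, 64 and 3 counts in CB2 KO, so a single CB2 KO library held nearly all of that group's counts. Its groups were apart only after scaling to library size, since the unscaled counts of WT replicate 3 and CB2 KO replicate 2 overlap. Crocc met the minimum count only through WT (mean of 169 counts in WT and 22.3 in CB2 KO). Zbtb8a, described above, was at 0 in 2 CB2 KO libraries, while its overlapping neighbour Zbtb8os was at 31.7, 28.9 and 22.3 CPM in WT and at 37.9, 36.9 and 40.7 CPM in CB2 KO.

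The library labelled CB2 KO replicate 1, which was level with WT at Cnr2, was within 5 CPM of the other CB2 KO libraries at Cep85, whose WT libraries stood at 557 to 624 CPM.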
